A study of Mus musculus with 6 samples.

Results

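The 91 genes described here encode subunits of potassium and sodium channels. They are all genes whose platform symbol is Kcn or Scn with a family letter and a number, on probe sets annotated to that gene alone, and each was read at its probe set of highest mean over 6 arrays. They are 91 of 18193 genes with such a probe set. Of the 91, 58 had a mean above the filter on low values (5.38 on the normalized log2 intensity scale) and were tested, among 13572 genes in all. The other 33 were given levels only.

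RNA of whole hearts of mice of the strain C57B6 was hybridised to 6 Affymetrix Mouse430_2 arrays, 3 from wild-type hearts and 3 from hearts labelled EphB4 Mutant. EphB4 is the venous endothelial receptor for the ligand ephrin-B2. Neither age nor kind of mutation was given in the labels, which also do not say whether the hearts were pooled. A second grouping came from letters that open the descriptions. The first 2 hearts of each genotype carry eI and the remaining heart of each carries eM, with no meaning stated. Calls between these letters therefore compare 2 hearts, 1 of each genotype, with 4.

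Potassium channels set the resting potential of heart muscle cells and end each action potential, and voltage-gated sodium channels start it. A channel is built from pore-forming subunits, 1 gene family for each kind of gating, and from accessory subunits that change its opening, its place in the cell or its amount. In the heart, Kcnq1 with Kcne1 carries the slow delayed rectifier current, Kcnh2 the rapid one, Kcnd2 and Kcnd3 with Kcnip2 the transient outward current, and the inward rectifiers (Kcnj) the resting, acetylcholine-gated and ATP-sensitive currents.

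Several values of the whole series bear on these genes. Heart muscle markers were bright in every heart, with a list mean of 13.65 to 13.88 over 8 genes. Of these, 4 had higher eM means, and Myh6 and Ryr2 passed the test as higher in eM hearts (0.67 and 0.76). The eM means of Nppa (-0.25), Tnnt2 (-0.19), Myl2 (-0.06) and Myh7 (-0.04) were lower, with 0 passing. Ephb4 itself read 7.83 to 8.20 in wild-type and 7.93 to 8.14 in mutant hearts, so its level did not separate the labelled genotypes, and as the place of the mutation relative to the probes is not known, this checks no label. On the first principal component of all tested genes (60.2% of variance) the eM hearts scored 19.2 (wild-type 3) and 35.4 (mutant 3), and the eI hearts -15.6 to -11.7. Measures of RNA quality moved with the letters: beta-actin control probes read higher at the 3-prime than the 5-prime end by 0.51 and 0.77 in eM hearts against 0.28 to 0.41 in eI hearts, and an 18S ribosomal RNA probe set read 11.62 and 12.34 against 9.75 to 10.42. Xist, transcribed from the inactive X of females, was low in mutant 1 (6.73) and mutant 3 (6.78) and high elsewhere (11.51 to 12.33), so the sexes were not balanced between genotypes.

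The promoters shown here are those of 3 subunit genes that differed between eM and eI hearts, Kcne3 (lower in eM), Kcnmb1 and Scn7a (both higher in eM). They are RefSeq windows of the build GRCm38.p6 from 250 bases before to 50 after a start site, read 5′ to 3′ on the gene's strand, and 70 of the 91 genes had such a window. Kcne3 has a pair of start sites on chromosome 7, plus strand, at chr7:100176420-100176719 and chr7:100178433-100178732. Kcnmb1 lies at chr11:33962763-33963062 on the plus strand and Scn7a at chr2:66784861-66785160 on the minus strand. Capitals mark matches to the motifs searched.
Kcne3, upstream start: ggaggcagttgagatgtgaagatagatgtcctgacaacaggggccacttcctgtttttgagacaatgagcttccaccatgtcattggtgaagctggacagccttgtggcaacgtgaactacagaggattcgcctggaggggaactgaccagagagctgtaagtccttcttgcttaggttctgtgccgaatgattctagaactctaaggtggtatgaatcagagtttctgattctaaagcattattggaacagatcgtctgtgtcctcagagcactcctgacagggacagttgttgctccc
Kcne3, downstream start: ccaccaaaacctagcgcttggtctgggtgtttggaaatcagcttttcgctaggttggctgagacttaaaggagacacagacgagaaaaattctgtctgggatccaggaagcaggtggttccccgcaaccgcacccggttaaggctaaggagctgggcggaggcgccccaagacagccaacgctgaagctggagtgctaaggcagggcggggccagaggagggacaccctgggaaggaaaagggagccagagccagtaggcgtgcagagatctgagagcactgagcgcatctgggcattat
Kcnmb1: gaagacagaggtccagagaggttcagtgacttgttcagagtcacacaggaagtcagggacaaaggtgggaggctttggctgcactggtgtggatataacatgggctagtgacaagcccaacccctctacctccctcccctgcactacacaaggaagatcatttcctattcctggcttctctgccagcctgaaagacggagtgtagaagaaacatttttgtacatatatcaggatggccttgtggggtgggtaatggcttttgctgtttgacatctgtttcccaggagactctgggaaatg
Scn7a: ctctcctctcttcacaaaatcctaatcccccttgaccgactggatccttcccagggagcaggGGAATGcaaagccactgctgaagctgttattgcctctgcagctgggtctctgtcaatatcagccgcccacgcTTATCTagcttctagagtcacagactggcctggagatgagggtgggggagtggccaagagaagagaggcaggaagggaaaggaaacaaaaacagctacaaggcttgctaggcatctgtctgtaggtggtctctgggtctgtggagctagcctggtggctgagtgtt

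These windows differed in base composition. The downstream Kcne3 window had 57.7% G and C and 12 CpG dinucleotides, the upstream one 48.3% and 4. Kcnmb1 had 49.7% and 1, and Scn7a 54.0% and 3, beside medians of 52.7% and 7 over all 32851 windows. Searched on both strands were AGATAA for GATA factors, CATTCC (the MCAT element), TATAAA, the CArG box of serum response factor and the MEF2 site. The only matches were in Scn7a, at -188 from the start (CATTCC, opposite strand) and at -116 (AGATAA, opposite strand), and they did not overlap. Of all windows, 11.2% held AGATAA, 14.7% CATTCC, 13.6% TATAAA, 1.63% a CArG box and 0.557% a MEF2 site. Whether any factor binds there was not measured.

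**Figure D1:**
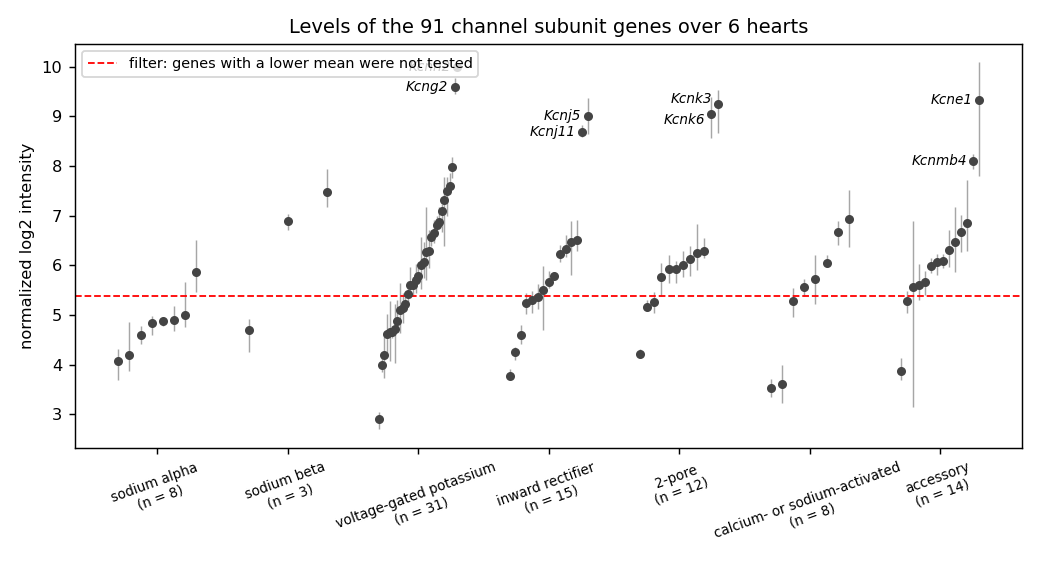
Mean normalized log2 intensity of each of the 91 subunit genes, grouped by family along the x axis, with bars from the lowest to the highest of 6 hearts. The dashed line is the filter at 5.38, 8 genes with means of 8 or more are labelled, and Kcne3 and Kcne1 have the longest bars.

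Channel subunit genes read dim on these arrays. Their means ran from 2.91 (Kcnh5) to 9.99 (Kcnh2), with a median of 5.79 beside 7.34 over all 18193 genes, and 8 of 91 (8.79%) had a mean of 8 or more, against 42% of all genes. These 8 were Kcnh2, Kcng2, Kcne1, Kcnk3, Kcnk6, Kcnj5, Kcnj11 and Kcnmb4. Intensities of different probe sets do not order transcript amounts, since probes differ in brightness, and the values carry no measure of background.

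Some of the brightest subunit genes held their level from heart to heart. Kcnh2, the pore of the rapid delayed rectifier, read 10.04, 9.95 and 10.02 in wild-type and 9.98, 9.95 and 10.03 in mutant hearts. Neither the genotype nor the letters divided these values. Kcng2, a silent subunit that changes channels of another voltage-gated family, read 9.77, 9.52 and 9.44 against 9.45, 9.57 and 9.78, and both groupings overlapped there. In 27 of the 58 tested genes the 6 hearts spanned less than 0.5.

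Most sodium channel pores were under the filter. Only 1 of 8 sodium channel pore genes was tested, Scn7a, and the means of the other 7 (Scn1a, Scn2a, Scn3a, Scn8a, Scn9a, Scn10a and Scn11a) lay from 4.08 in Scn2a upward, all under the filter. Among cardiac genes, Kcnj2, a pore of the resting inward rectifier, read only 3.71 to 3.90 at its single probe set, and Kcne2, Kcnj14, Kcnk2, Kcnn3 and Scn3b were under the filter too. A further 3 of 30 genes listed for cardiac currents were not analysed here.

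The hearts were next compared by the letters of their descriptions, eM (wild-type 3 and mutant 3) against eI (the other 4), with genotype as a covariate in limma. At an adjusted p of 0.05, 7 of 58 subunit genes passed (12.1%), beside 10.3% of all genes tested. The share was therefore near that of the background. Of the 7, Kcne3, Kcne1, Kcnk3 and Kcnk6 were lower in the eM hearts (background 5.82%), and Kcng1, Kcnmb1 and Scn7a higher (background 4.47%). The 2 eM hearts lay outside the range of the 4 eI hearts in 19 subunit genes (32.8%), beside 44.6% of all genes tested. Of these, 7 were higher in eM hearts (background 20.8%) and 12 lower (background 23.8%). At an unadjusted p under 0.05 there were 18 (31%), beside 30.4%.

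**Figure D2:**
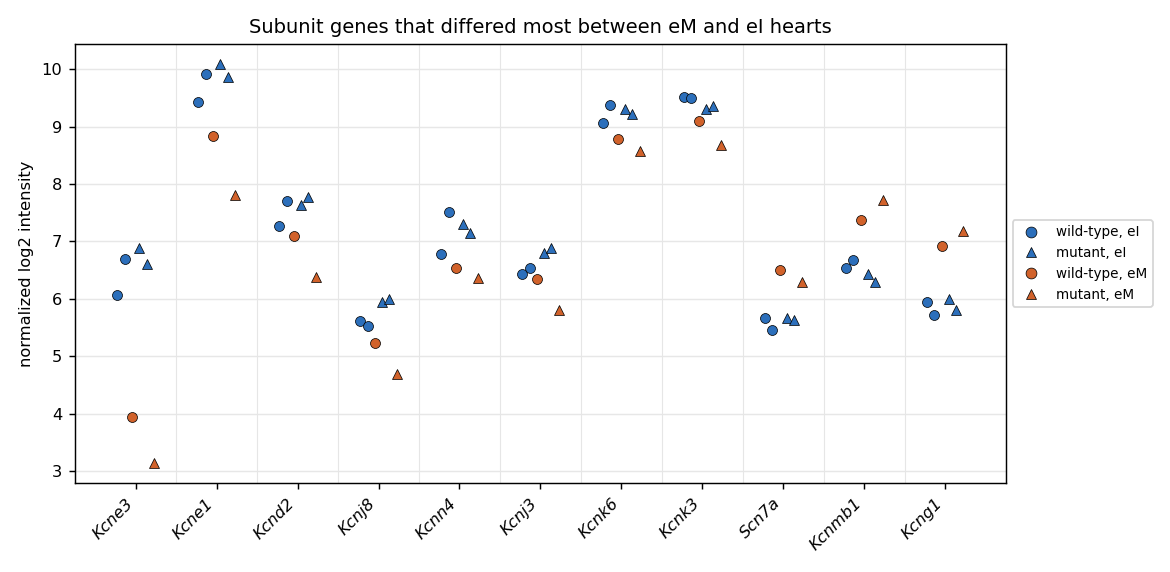
Normalized log2 intensity in each of the 6 hearts (blue eI, orange eM, circles wild-type, triangles mutant) for the 11 tested subunit genes that passed an adjusted p of 0.05 or had no overlap and at least 1.5-fold difference between eM and eI hearts. The eM hearts sit below the eI hearts from Kcne3 to Kcnk3 and above them for Scn7a, Kcnmb1 and Kcng1.

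The largest difference was that of Kcne3, which encodes a small accessory subunit with 1 membrane span that keeps Kcnq1 channels open. It read 6.07 in wild-type 1, 6.70 in wild-type 2, 6.88 in mutant 1 and 6.60 in mutant 2, but 3.95 in wild-type 3 and 3.14 in mutant 3. The groups were far apart, with the eI hearts at 6.56 ± 0.35 (SD, n = 4), and the fitted difference was -3.01 log2 (95% confidence interval -3.74 to -2.28, limma, adjusted p = 0.0131). Kcne3 passed the filter through its eI hearts, since both eM values lay below it, and with no filter it also passed (limma, adjusted p = 0.0179). Its eM values are not shown to lie above background, so no fold is given, and it has 1 probe set.

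Kcne1 encodes the accessory subunit that slows Kcnq1 and gives the slow delayed rectifier. It read 9.42 and 9.91 in the eI wild-type and 10.09 and 9.86 in the eI mutant hearts, against 8.84 in wild-type 3 and 7.80 in mutant 3. The eM hearts were lower, with a fitted difference of -1.50 (2.82-fold, interval -2.25 to -0.74, limma, adjusted p = 0.038), and mutant 3 stood lowest. Its second tested probe set gave -0.58, without overlap either. Kcnq1, the pore that Kcne1 and Kcne3 bind, read 7.49 to 7.77 in eI hearts and 7.42 and 6.99 in eM hearts, a difference of -0.44 that did not pass (limma, adjusted p = 0.104). The remaining member of the Kcne family above the filter, Kcne4, gave -0.24, with 5.57 and 5.30 in the eM hearts inside and just below the eI range.

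Both 2-pore genes that passed encode leak channels. Kcnk3, an acid-sensitive channel of heart muscle and pulmonary artery, read 9.52, 9.50, 9.31 and 9.35 in eI hearts and 9.09 and 8.67 in eM hearts. The difference was -0.54 (interval -0.76 to -0.32, 1.46-fold, limma, adjusted p = 0.0243). Kcnk6 read 9.06, 9.38, 9.30 and 9.21 against 8.78 and 8.57, a difference of -0.56 (1.48-fold, limma, adjusted p = 0.0415). In both genes every eM value lay under every eI value. The other probe sets of Kcnk3 gave -0.33 and -0.22. Among the 9 tested 2-pore genes 8 were lower in eM hearts with a median of -0.11, beside -0.03 over all genes tested. The exception was Kcnk5, at 0.48 (limma, adjusted p = 0.0624), although its other probe set, under the filter, gave -0.31.

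Kcng1, a silent voltage-gated subunit like Kcng2, was higher in eM hearts. It read 5.95, 5.71, 6.00 and 5.81 in eI hearts and 6.92 and 7.18 in eM hearts, a difference of 1.18 or 2.26-fold (interval 0.90 to 1.45, limma, adjusted p = 0.0131). Its second probe set, under the filter, gave -0.04, so the difference rests on 1 probe set.

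Kcnmb1 encodes the accessory subunit of the large-conductance calcium-activated channel of smooth muscle. It read 6.54, 6.68, 6.43 and 6.29 in eI hearts and 7.38 and 7.72 in eM hearts, a difference of 1.06 or 2.09-fold (interval 0.70 to 1.43, limma, adjusted p = 0.0181). The pore that it binds, Kcnma1, was close in all hearts, at 6.00 to 6.21 in eI hearts and 5.96 in both eM hearts. A second tested probe set of Kcnmb1 gave only 0.12. Part of the smooth muscle and pericyte markers moved with it. Of these 7 genes 5 had higher eM means and 3 passed (Tagln, Rgs5 and Des), with Myh11 at 0.01, Cnn1 at -0.04 and the pericyte marker Pdgfrb at -0.59, and the log2 of their summed level was 14.99 and 15.12 against 14.45 to 14.67. Their part in the Kcnmb1 result was not tested. In whole hearts, a change in the number of cells of a type and one in RNA per cell cannot be told apart.

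Scn7a encodes an atypical sodium channel that responds to the sodium level and is best known from glia and sensory neurons. It read 5.67, 5.46, 5.67 and 5.63 in eI hearts and 6.50 and 6.29 in eM hearts, a difference of 0.79 or 1.72-fold (interval 0.52 to 1.05, limma, adjusted p = 0.0176). One of its probe sets under the filter gave 0.71 and the other 0.00. Neuron and glia markers had a summed level (log2) of 9.01 and 9.61 in eM hearts against 8.74 to 9.08. Of the 5 tested, 2 had higher eM means and 0 passed in limma, the glial Sox10 read 7.06 and 7.17 in eM hearts within the 6.89 to 7.65 of the eI hearts, and Snap25 lay under the filter. Their part in the Scn7a result was not tested.

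Another 4 genes differed by at least 1.5-fold without overlap but did not pass, all with lower values in eM hearts. Kcnd2, a pore of the transient outward current, read 7.26, 7.71, 7.64 and 7.78 against 7.09 and 6.38 (difference -0.86, limma, adjusted p = 0.0685). A second tested probe set of Kcnd2 gave -0.51, and there the letters overlapped. Kcnj8, the ATP-sensitive pore of vascular muscle, read 5.61, 5.53, 5.94 and 5.99 against 5.23 and 4.69 (-0.81, limma, adjusted p = 0.0585), and its eM mean lay under the filter. Kcnn4, a calcium-activated channel of red blood cells and leukocytes, gave -0.74, and Kcnj3, a pore of the acetylcholine-gated current, -0.59. Kcnk3 and Kcnk6 passed with less than 1.5-fold, so with these 4 and the other 5 that passed, no overlap and at least 1.5-fold held for 9 of 58 subunit genes (15.5%), beside 7.11% of all genes tested. Of the 9, 3 were higher (background 2.81%) and 6 lower (background 4.3%). Among the 9, Kcne3 and Kcnj8 passed the filter through their eI hearts, as their eM means lay under it. Their eM values are not shown to lie above background, so the 15.5% is not read as an excess.

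Mutant 3 lay farther from the eI hearts than wild-type 3 in 6 of the 7 subunit genes that passed (85.7%), Scn7a being the exception, beside 80% of all genes that passed. It did so in 16 of the 19 subunit genes without overlap (84.2%), beside 72.8% of all such genes. For Kcne1 the eM minus eI difference was -0.82 within wild-type and -2.17 within mutant hearts, for Kcne3 -2.43 and -3.60, and for Kcnj3 -0.14 and -1.04. Each of these rests on 1 eM heart per genotype. Measures of RNA quality moved with the letters as given above. Of 4 fibroblast markers only Lum passed, at 7.51 and 6.04 in eM hearts against 9.70 to 10.64. The eM means of Col1a1, Col3a1 and Dcn were lower through mutant 3, while wild-type 3 lay within the eI range in each, and the summed level of the list (log2) was 12.99 and 12.27 against 13.08 to 13.66. The part of either in these results was not tested.

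Leaving out single hearts changed the calls. Without mutant 2 or without mutant 3, 0 of the 58 passed (at an unadjusted p under 0.05 limma had 2574 and 2079 of 13572 genes), and without mutant 1 only Kcne3 and Kcng1 did. In these fits Kcne3 gave -2.99, -2.43 and -2.87. Without wild-type 2, Kcne1 and Kcnk6 no longer passed, and without wild-type 3, Scn7a and Kcnk6. Without wild-type 1, 13 passed, the 7 among them. The 7 kept their direction in each of these fits. The exact permutation p of each was 0.133, the smallest that 2 against 4 hearts can give (two-sided).

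**Figure D3:**
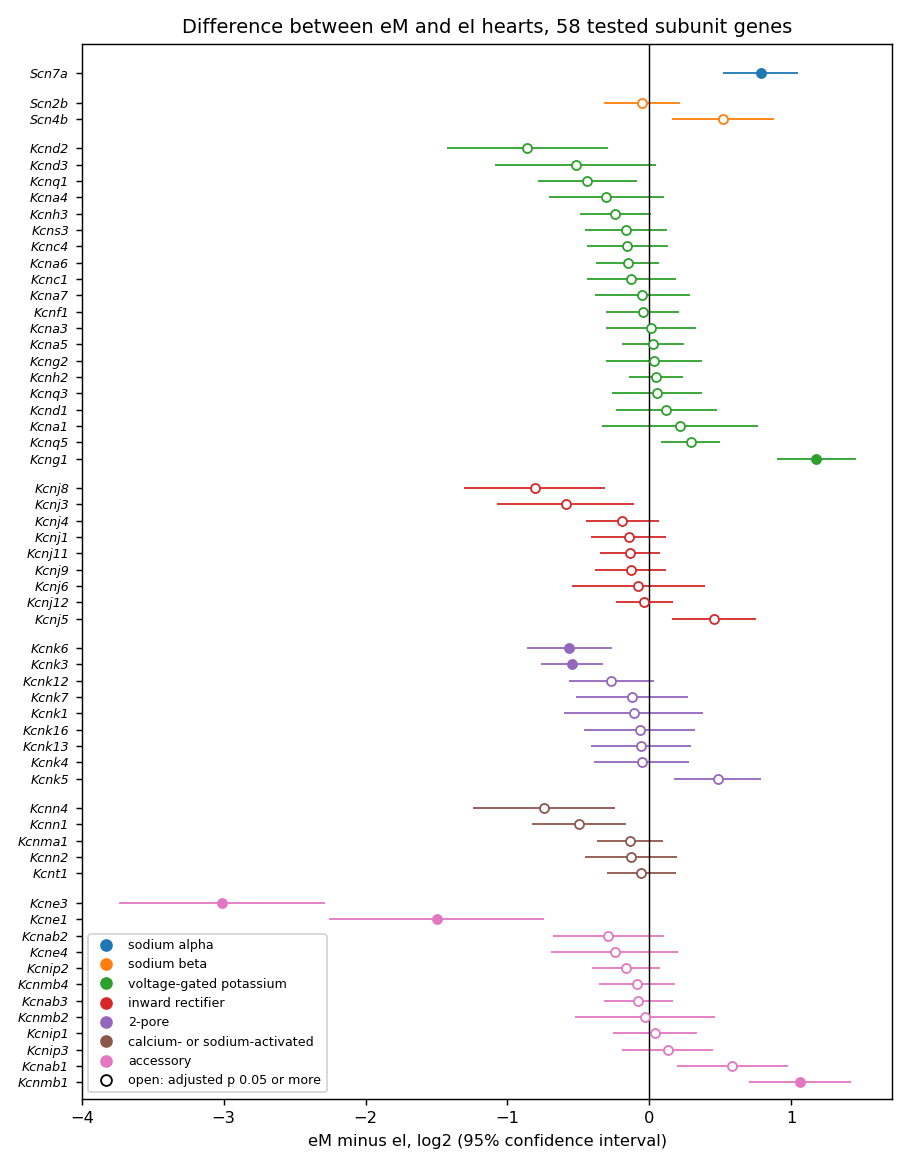
Fitted eM minus eI difference (log2, genotype as covariate) with its 95% confidence interval for the 58 tested subunit genes, coloured by family; filled points passed an adjusted p of 0.05. Most points lie between -0.5 and 0, and the 7 filled ones include Kcne3 at -3.01 and Kcng1 at 1.18.

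Counted by family, lower values in eM hearts were common. Among all tested subunit genes 41 were lower and 17 higher (29.3%, beside 44.8% of all genes higher), with a median of -0.10 beside -0.03 over all genes tested, where the sign is that of the fitted difference, called or not. Tested subunit genes were dimmer than all genes tested, with a median of means of 6.29 beside 8.38. The part of this dimness in the signs was not tested. In the inward rectifier family 8 of 9 were lower (median -0.14) and 0 passed in limma. Calcium- or sodium-activated pores were lower in 5 of 5 (median -0.14, 0 passing), and voltage-gated potassium pores in 11 of 20 (median -0.05, 1 passing, higher). Accessory subunits were lower in 8 of 12 (median -0.08), with 2 passing lower and 1 higher.

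**Figure D4:**
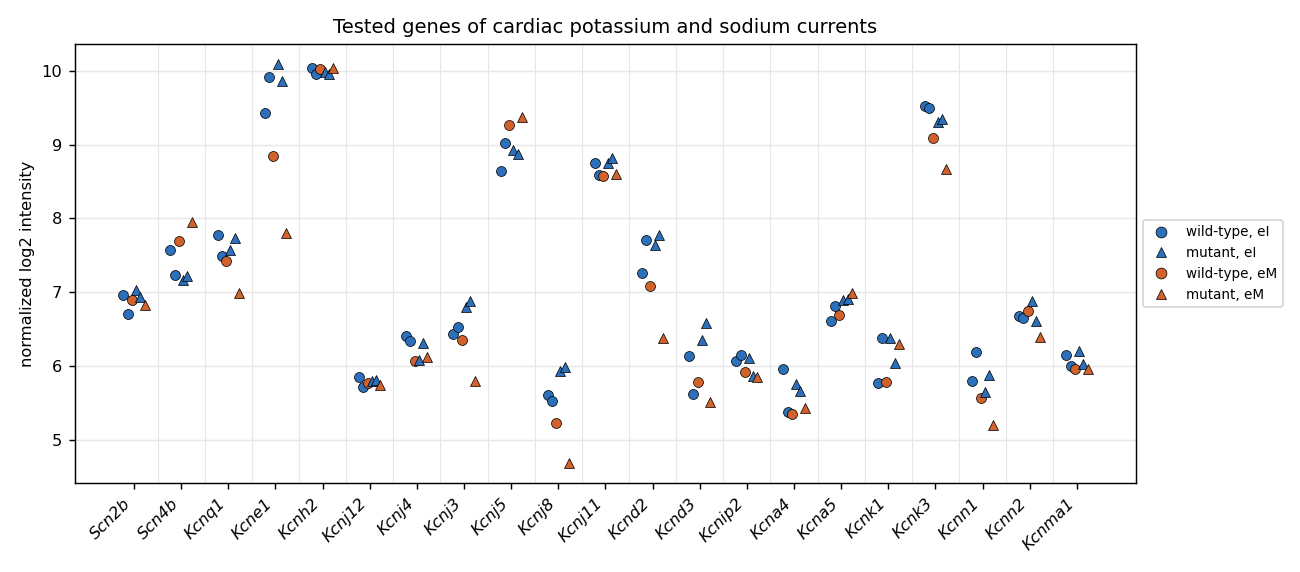
Normalized log2 intensity in each of the 6 hearts (blue eI, orange eM, circles wild-type, triangles mutant) for the 21 tested genes of cardiac potassium and sodium currents. Kcnh2 hardly varies, while for Kcne1, Kcnd2 and Kcnj8 the eM hearts lie below the eI hearts and for Kcnj5 above them.

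The genes of the cardiac currents were followed as a list whatever their values. Of 27 among the subunit genes, 21 were tested. In eM hearts 17 of them were lower and 4 higher, beside 44.8% of all genes tested that were higher. The median was -0.16, beside -0.03 over all genes tested. Of the 21, Kcne1 and Kcnk3 passed, beside 10.3% of all genes tested. Fitted differences of genes of 1 current did not always have the same sign. The acetylcholine-gated channel is built from Kcnj3 and Kcnj5. Kcnj3 read 6.44, 6.53, 6.80 and 6.89 in eI hearts and 6.35 and 5.80 in eM hearts, a difference of -0.59 (limma, adjusted p = 0.111), although its second tested probe set gave -0.14. Kcnj5 read 8.64, 9.02, 8.92 and 8.87 against 9.27 and 9.37, a difference of 0.46 (limma, adjusted p = 0.0649). Neither group of values overlapped, and neither gene passed. The other probe set of Kcnj5, under the filter, gave 0.04.

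The ATP-sensitive pore of heart muscle, Kcnj11, read 8.59 to 8.82 in eI hearts and 8.58 and 8.60 in eM hearts, a difference of -0.14 (interval -0.35 to 0.08). Transient outward genes other than Kcnd2 overlapped between the letters: Kcnd3 gave -0.52, Kcna4 -0.30 and the accessory Kcnip2 -0.16. Kcna5, the ultra-rapid delayed rectifier, gave 0.03. The inward rectifiers Kcnj12 and Kcnj4 gave -0.04 and -0.19, and the small-conductance calcium-activated Kcnn1 and Kcnn2 -0.50 and -0.13. Of the sodium channel accessory subunits, Scn4b read 7.58, 7.23, 7.17 and 7.22 against 7.69 and 7.95 (0.52, limma, adjusted p = 0.0757), and Scn2b gave -0.05.

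Genes that work with these channels but do not carry their names were counted from a list of 28, of which 24 had a probe set and 19 were tested. Between the letters 6 of the 19 passed (31.6%, beside 10.3% of all genes tested), 3 higher and 3 lower in eM hearts. As the list was chosen with earlier results of these data known, the 31.6% is not read as an excess. By sign alone 7 were higher and 12 lower, beside 44.8% of all genes tested that were higher. The 3 that passed as higher were Akap9, Gpd1l and Abcc9. Akap9, the anchor protein that ties kinase signalling to Kcnq1, had a difference of 0.89 (limma, adjusted p = 0.0144). Gpd1l gave 0.38 (limma, adjusted p = 0.0466). Abcc9, the sulphonylurea receptor that pairs with Kcnj8 and Kcnj11 in muscle, gave 0.36 (limma, adjusted p = 0.0481). Akap9 read 8.44, 8.61, 8.86 and 8.68 in eI hearts and 9.53 and 9.55 in eM hearts. Those that passed as lower were the adaptor Sntb1 (-0.72), Fgf11 (-0.72) and Abcc8 (-0.38), the other sulphonylurea receptor. Their adjusted p-values in limma were 0.0307, 0.0499 and 0.0413. Fgf11, Abcc9, Gpd1l and Abcc8 thus passed close to the threshold of 0.05. Each of the 6 has more than 1 probe set, and only the brightest is given here.

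Mutant and wild-type hearts were compared to ask whether the EphB4 mutation went with other levels of channel genes. In limma 0 of 58 subunit genes passed, as did 0 of 13572 genes (0%), with a smallest adjusted p of 0.9997. At an unadjusted p under 0.05 there were 4 subunit genes, or 6.9%, beside 0.936% of all genes tested (limma, no term for the letters). Lower in mutant hearts were Kcnq3, Kcna6 and Kcnab3 (background 0.508%), and higher was Kcna5 (background 0.427%). Genotypes did not overlap in 5, these 4 and Kcnd1 (8.62%), beside 4.39% of all genes. Of the 5, 3 were lower (background 2.25%) and 2 higher (background 2.14%). All 58 differences were smaller than 0.5 log2. With the letters as a block, 416 of 13572 genes were under an unadjusted p of 0.05 in limma, against 127 without. Subunit genes under 0.05 were not counted in that fit, so the 6.9% is not read as an excess.

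**Figure D5:**
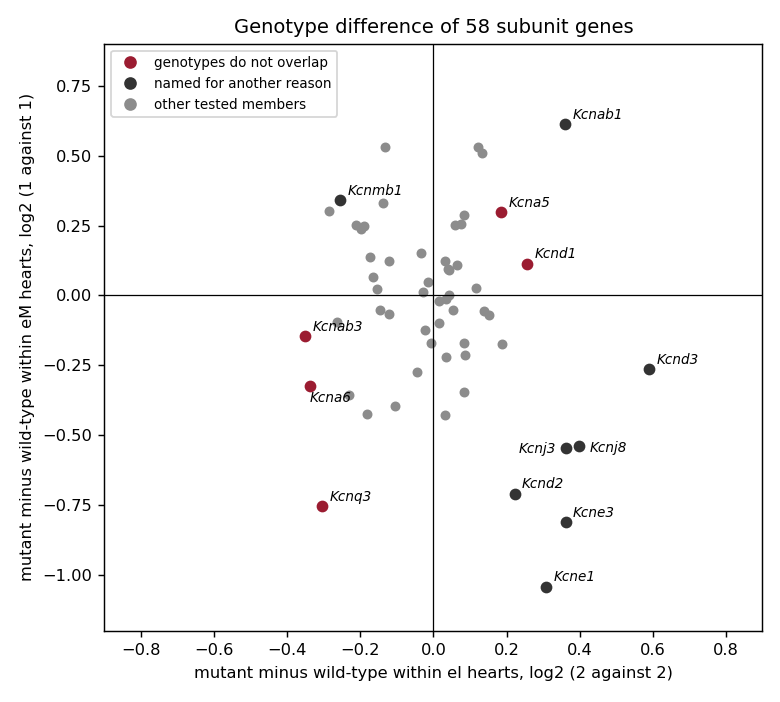
Mutant minus wild-type difference (log2) of the 58 tested subunit genes within the eI hearts (x axis, 2 against 2) and within the eM hearts (y axis, 1 against 1). The 5 genes whose genotypes did not overlap are in red, which by itself gives them the same sign on both axes. Kcne1, Kcne3, Kcnd2, Kcnj8 and Kcnj3 are positive in eI and negative in eM.

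The lowest p of the genotype comparison belonged to Kcnq3, which with other Kcnq pores carries the M current of neurons. It read 6.52, 6.33 and 6.70 in wild-type and 6.18, 6.06 and 5.95 in mutant hearts. Every mutant value was below every wild-type value, and the difference was -0.45 (interval -0.76 to -0.15, limma, adjusted p = 0.9997, exact permutation p = 0.1, the smallest that 3 against 3 can give). It was -0.30 within eI and -0.75 within eM hearts. A probe set under the filter gave 0.02.

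Kcna6, a voltage-gated pore, read 5.83, 6.03 and 5.77 in wild-type and 5.55, 5.63 and 5.45 in mutant hearts (difference -0.33). Its second tested probe set, of nearly the same brightness, gave 0.04. Kcnab3, an accessory subunit of the Kcna channels, read 5.85, 5.89 and 5.69 against 5.41, 5.62 and 5.54 (-0.28). Its other probe set, under the filter, went the other way, at 0.19. These genes were dim, with means within 1 log2 unit of the filter, and the stricter filter left them out together with Kcnq3.

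Kcna5 was higher by 0.22 in mutant hearts, at 6.90, 6.91 and 6.99 against 6.62, 6.81 and 6.69 (interval 0.01 to 0.44), and it has 1 probe set. Kcnd1 gave 0.21, where wild-type 2 (6.67) stood apart from 7.18 and 7.12 and the mutant hearts read 7.18 to 7.23. Kcnab1 had the largest positive difference, 0.44, but overlapped, at 6.33, 5.87 and 6.56 against 6.60, 6.32 and 7.18. Also among the smallest p-values were Kcnj9 (-0.21), Kcnk12 (-0.20) and Kcnt1 (0.15), with overlap in each. The largest genotype differences of cardiac current genes were those of Kcnd3 (0.31, interval -0.38 to 0.99), Kcnn1 (-0.27), Kcnk3 (-0.26) and Kcnk1 (0.26), each with overlap. Kcnh2 gave -0.02 with an interval of -0.21 to 0.18, Kcnj12 0.00 (-0.20 to 0.21) and Kcnj11 0.09 (-0.16 to 0.33). For Kcne1 the interval was wide, -1.62 to 1.33, as the letters split both genotypes.

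By family, medians of the genotype difference lay between -0.06 for accessory subunits (4 of 12 higher) and 0.02 for inward rectifiers (6 of 9 higher) and 2-pore genes (5 of 9 higher). Over all tested subunit genes the median was -0.01, with 27 higher and 31 lower (46.6% higher, beside 51.1% of all genes), beside a median of 0.00 over all genes tested. Of the partner genes 5 of 19 were higher (median -0.04, 0 passing). Those of smallest p were Scnn1b (-0.16), Ank3 (-0.18) and Fgf13 (-0.08).

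Whether the genotype difference itself differed between eM and eI hearts was tested with an interaction term in limma, and 0 of 58 passed (0% of all genes, smallest adjusted p among subunit genes 0.621). At an unadjusted p under 0.05 there were 7 (12.1%), beside 7.12% of all genes tested. Kcnj8 differed by 0.40 within eI and -0.54 within eM hearts, Kcnj3 by 0.36 and -0.54, Kcne1 by 0.31 and -1.04, Kcne3 by 0.36 and -0.81, and Kcnd2 by 0.22 and -0.71. Kcnmb1 (-0.25 and 0.34) and Kcns3, another silent subunit (-0.19 and 0.25), went the other way. The eM value of each is the gap between 1 mutant and 1 wild-type heart. For Kcne3 and Kcnj8 these eM hearts read under the filter and are not shown to lie above background. The 12.1% is therefore not read as an excess.

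The 33 subunit genes under the filter were not tested. Between the letters the largest was that of Kcnc2 (-0.72, with 5.27, 4.36, 4.67 and 5.28 in eI and 4.28 and 4.08 in eM hearts), and 8 of 33 did not overlap (24.2%), beside 20.1% of the 4621 genes under the filter. Between the genotypes 0 of 33 were without overlap, beside 6.34%, and the largest difference was 0.30 in size, in Scn3a (-0.30).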

How the data were processed

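Transcript levels of 6 mouse hearts were measured on Affymetrix Mouse430_2 arrays. The deposited values are log2 intensities, and RMA is the tool that the submitters' processing notes name. No scanner files were used here, and the number of arrays limits the precision. Of 45101 probe sets, 64 controls were left out, and 34945 named 1 gene, 932 several and 9160 none here. Probe sets whose mean lay in the lowest 40% were left out of tests.

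Tests used lmFit and eBayes of limma 3.58.1 under R 4.3.3 (two-sided, Benjamini-Hochberg over all genes tested, threshold 0.05): genotype with no covariate, letters with genotype, and their interaction. Single values were set against two-sided exact permutation tests (scipy 1.17.1). Python 3.11.15 and matplotlib 3.10.9 made the plots. The fit was run on simulated arrays with independent normal noise. Those for the genotype held no difference between the letters, so they do not show how that fit performs on these hearts.

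Members and lists were chosen with earlier results of these data known. Named were listed cardiac current genes, those past the threshold, the 5 of smallest p per direction and comparison, the 8 brightest, and those without overlap and at least 1.5-fold between letters. Kcnh5, Kcnc2, Kcns3, Kcne4 and the sodium pores under the filter were named after their values were seen. Same-numbered hearts deviated together from their group means (r = 0.177, 0.304 and 0.704), but eI hearts of different number did so more (0.463 and 0.435) and number 3 is the eM pair. The titles' numbers are therefore not shown to pair the hearts beyond the letters, and were used as a block only as an alternative. The labels do not say that the hearts of a group came from separate litters or extractions, so p-values measure only the spread between these samples. Alternatives covered the filter, normalization, eBayes settings, array weights, probe sets, blocks and left-out hearts.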

Additional observations from a re-analysis of the deposited data

Results flagged for a closer look

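Among the 44 named subunit genes, a single heart stood far from the other 3 eI hearts in 3 (its gap to the nearest relative to the range, Dixon's test), where chance gives about 1 in 20 groups. Kcnd1 read 6.67 in wild-type 2 against 7.18 in each of the others. Scn3b, under the filter, read 4.25 in wild-type 2 against 4.87 to 4.92. Scn4b read 7.58 in wild-type 1 against 7.17 to 7.23.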

How the results depend on the processing

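Between genotypes 0 of the subunit genes passed under every alternative run, and 0 of all genes except without mutant 2 (0 to 2 genes over the left-out hearts). With the replicate block 0 genes passed, as without it (292 genes at an unadjusted p under 0.05 in limma). The block cannot be used between the letters, since number 3 is eM in both genotypes.

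Between the letters, 1397 genes passed, against 878 with no filter and 3160 of 27022 when all probe sets were tested. Within wild-type hearts alone 0 passed, within mutant hearts alone 3570, and 0 to 1937 when single hearts were left out. Of the subunit genes 7 passed, against 11 with array weights, 12 without the genotype term, 0 within wild-type and 20 within mutant hearts alone, and 0 to 13 when single hearts were left out. The alternatives that left out the 60% dimmest probe sets, normalized by quantiles, centred arrays, changed eBayes or averaged probe sets gave 5 to 9. Where a fit leaves 1 eM heart, that heart is assumed to vary like the others. Over 38 tested named genes and 17 alternatives, 554 of 625 values kept their side of the threshold, 33 lost and 38 gained a call, and 0 that passed changed direction. Signs of genes that did not pass changed in 74 of 701 values between genotypes and 21 between letters. Levels moved beyond the spread between hearts in 8 of 390, each time when probe sets were averaged. The interaction, with alternatives chosen after seeing the data, gave 0 genes in each. How far the dim genes lay above background was not measured here.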
